A study of Mus musculus with 15 samples.

Results

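The genes described are 32 markers of liver endothelium, chosen by name, and all 32 were found among the 22180 genes measured. They comprise 10 markers of sinusoidal endothelial cells, 8 growth factor receptors and their partners, 8 junction and pan-endothelial genes, 3 angiocrine factors that endothelial cells send to hepatocytes, and 3 transcription factors. Sinusoidal endothelial cells line the liver's capillaries. Their pores let plasma reach the hepatocytes, and their scavenger receptors remove waste molecules and immune complexes from the blood. They depend on vascular endothelial growth factor (VEGF) from neighbouring cells. In return they make Wnt and BMP signals that set hepatocyte zones and iron handling.

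Liver RNA came from 15 male mice of the ApoE3L.CETP genotype, which carries human transgenes that give a more human-like lipoprotein profile, and 1 array was run per mouse. Every group carried this genotype, was 9 to 12 weeks old at the start of the experiments, was fed a rich diet of 60% fat and 0.25% cholesterol during the 6 weeks before surgery, and was killed 20 days after it. The RYGB group (6 mice) had Roux-en-Y gastric bypass, which joins a small gastric pouch directly to the jejunum. The BWm group (4 mice) had a sham operation and was kept at the body weight of the RYGB mice, and the Sham AL group (5 mice) had a sham operation and ate ad libitum. RYGB against BWm asks what surgery changed at like body weight, RYGB against Sham AL what surgery and weight loss changed together, and BWm against Sham AL what body weight matching changed.

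Values are log2 signals, so a difference of 1 is a 2-fold change. They can be compared between livers for 1 gene, but not between genes. A gene was called where the adjusted p of the limma test, taken over all 22180 genes, was under 0.05. The RNA is from whole liver, so fewer endothelial cells and less RNA per endothelial cell cannot be told apart. Mean log2 signals of the 12 hepatocyte markers lay between 11.28 and 11.64 on all arrays, as the tissue label states. Signal over background was not measured here. Array medians lay between 3.89 and 4.02, and the lowest values of Cldn5 (3.99) and Wnt9b (3.93) were within or near that range, so these genes were dim.

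Some arrays bear on the results. Sham AL replicate 4 carried transcripts of adrenal cortex and brown fat. There Cyp11b1, a steroid synthesis enzyme, measured 10.37 and Ucp1, which uncouples brown fat mitochondria, 11.89. The remaining Sham AL livers averaged 2.86 ± 0.32 for Cyp11b1 and 3.87 ± 0.46 for Ucp1 (SD, n = 4). RYGB replicate 6 was the lowest of all 15 arrays in 19 of the 32 endothelial markers, whereas it was lowest in 6.28% of all genes. Averaged over the 32 markers and taken relative to the mean of all arrays, this array lay at -0.50, the other RYGB arrays between -0.21 and 0.10, the BWm arrays between 0.07 and 0.22 and the Sham AL arrays between -0.09 and 0.12. On the same array the hepatocyte list lay at -0.02, the stellate cell list at -0.07 and the Kupffer cell list at 0.15. The sample descriptions also give an animal number, whose meaning they do not state. It was under 50 for 3 RYGB, 0 BWm and 1 Sham AL mice, and above 60 for 3 RYGB, 4 BWm and 4 Sham AL mice.

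The first 250 bases upstream of the gene start are shown for 3 of the markers that the comparisons turn on: Fcgr2b, which passed the test against BWm, and Kdr and Nrp1, the VEGF receptor pair described below. They come from RefSeq on GRCm38.p6, which held promoter windows for 19 of the 32 marker genes, and are written 5′ to 3′ along the gene. Capitals mark a match to the letters CNGGAAG on either strand, a core bound by ETS factors, the family that holds many regulators of endothelial genes. Fcgr2b lies at chr1:170976072-170976321 (minus strand), Kdr at chr5:75978456-75978705 (minus strand) and Nrp1 at chr8:128358823-128359072 (plus strand).
Fcgr2b: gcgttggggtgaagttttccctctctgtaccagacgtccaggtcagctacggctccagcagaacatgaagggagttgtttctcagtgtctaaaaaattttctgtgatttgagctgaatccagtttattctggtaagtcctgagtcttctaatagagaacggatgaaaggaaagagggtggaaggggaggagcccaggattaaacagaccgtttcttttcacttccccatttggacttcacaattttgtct
Kdr: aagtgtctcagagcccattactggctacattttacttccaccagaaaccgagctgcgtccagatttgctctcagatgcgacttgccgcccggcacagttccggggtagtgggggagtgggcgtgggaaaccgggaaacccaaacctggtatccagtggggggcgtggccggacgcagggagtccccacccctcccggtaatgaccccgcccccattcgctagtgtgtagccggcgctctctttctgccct
Nrp1: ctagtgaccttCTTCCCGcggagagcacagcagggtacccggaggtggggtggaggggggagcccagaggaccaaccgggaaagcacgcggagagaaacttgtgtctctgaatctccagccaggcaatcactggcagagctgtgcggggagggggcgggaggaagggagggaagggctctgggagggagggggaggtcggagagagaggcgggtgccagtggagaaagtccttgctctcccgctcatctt

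In windows of 250 bases before to 50 bases after the gene start, the ETS letters were in 8 of the 19 marker genes (42.1%), against 26.6% of 32851 windows in the table. The 8 genes were Stab1, Flt1, Flt4, Nrp1, Tie1, Robo4, Emcn and Egfl7. The GATA letters AGATAA were in 0 of 19 genes (9.99% of all windows), the SOX letters AACAAT in 2 (10.5%, against 9.42% of all windows), and the MAF factor letters TGCTGA in 5 (26.3%, against 16.1%). By window, the like measure to the share of all windows, the ETS letters were in 9 of 21 and the GATA letters in 0 of 21. The SOX letters were in 2 of 21 windows and the MAF letters in 5 of 21. Both strands were searched, and matches of different motifs can overlap. A match describes letters in the window and is not evidence of binding.

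Endothelial markers were lower in RYGB livers than in BWm livers for part of the set. Ptprb, Fcgr2b and Gpr182 were called lower in RYGB than in BWm livers. That is 3 of 32 markers called and all 3 lower, where 6.36% of all genes were called and 2.34% were called lower. The share of markers called (3 of 32) was thus not far from that of all genes. The fitted log2 differences were below 0 for 28 of 32 markers (49.7% of all genes), with a median of -0.23 over the markers and 0.001 over all genes. By role the medians were -0.44 for the sinusoidal markers, -0.34 for the growth factor receptors, -0.30 for the transcription factors, -0.11 for the angiocrine factors and -0.06 for the junction genes. With an unadjusted p under 0.05 there were 14 markers, all lower (18.4% of all genes passed that level and 7.73% were lower).

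**Figure D1:**
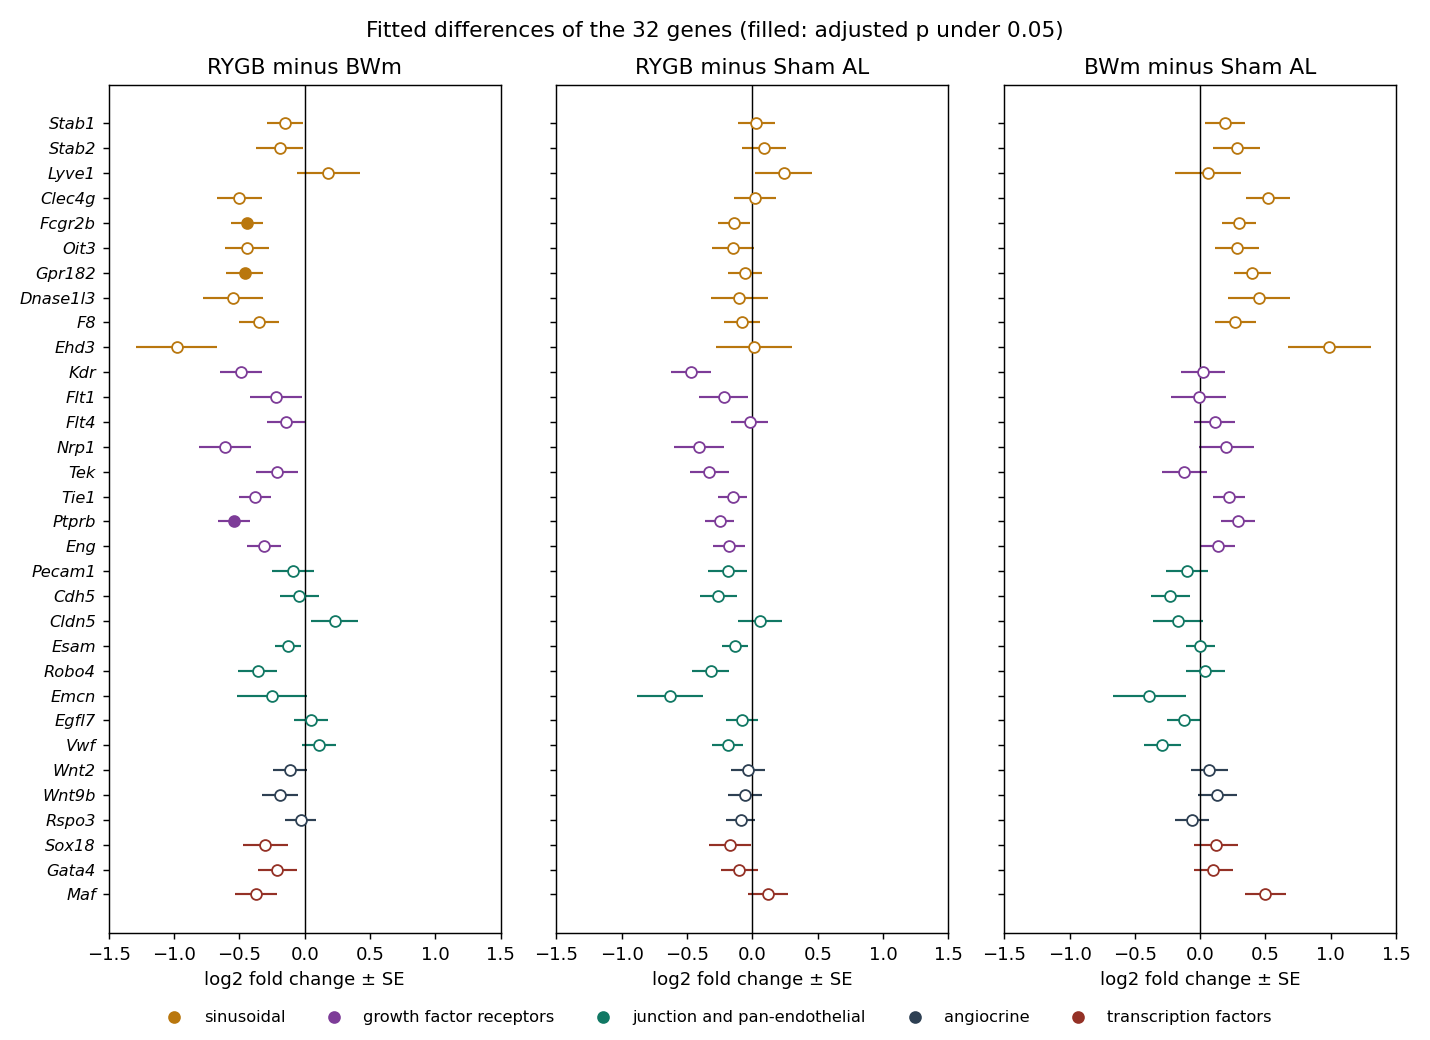
Fitted log2 differences with standard errors for the 32 markers (rows, grouped by role) in RYGB minus BWm, RYGB minus Sham AL and BWm minus Sham AL; filled points passed the adjusted test. In RYGB minus BWm, 28 of 32 points lie left of 0 and 3 are filled, and in the other comparisons none is filled.

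Among the sinusoidal markers, Fcgr2b, the inhibitory Fc receptor with which these cells take up immune complexes, measured 8.50 at the lowest, 8.80 at the median and 9.00 at the highest of the 6 RYGB livers. The BWm livers gave 9.41, 9.01, 9.20 and 9.24 and the Sham AL livers 9.15, 8.87, 8.78, 8.73 and 9.03. Every RYGB value thus lay below every BWm value, by little at the nearest pair, and RYGB and Sham AL overlapped. Fcgr2b was 1.35-fold lower in RYGB than in BWm livers (log2 -0.44 ± 0.12 SE, adjusted p = 0.043).

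Gpr182, a chemokine-binding receptor of sinusoidal and lymphatic endothelium, had a lowest, median and highest value of 7.11, 7.54 and 7.68 in RYGB livers. In BWm livers it measured 7.85, 8.0, 8.18 and 7.81, and in Sham AL livers 7.70, 7.71, 7.81, 7.30 and 7.29. All RYGB livers were below all BWm livers, and all BWm livers were above all Sham AL livers, though the nearest pair was equal to 2 decimals. The difference from BWm was 1.38-fold (log2 -0.46 ± 0.14 SE, adjusted p = 0.049), close to the threshold.

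Ehd3, an endocytic trafficking protein, had the widest spread. RYGB livers ran between 7.80 and 9.91 with a median of 9.31, BWm livers measured 9.89, 9.92, 10.38 and 9.90, and Sham AL livers 9.65, 9.06, 8.59, 9.21 and 8.67. RYGB replicates 5 (7.80) and 6 (8.48) were the low ones, and only RYGB replicate 3 (9.91) reached the BWm range. The difference of log2 -0.98 ± 0.31 SE from BWm did not pass the test (adjusted p = 0.069). In BWm minus Sham AL it was log2 0.99 ± 0.32 SE (adjusted p = 0.12), with all BWm values above all Sham AL values.

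Clec4g, the lectin LSECtin of sinusoidal cells, measured 8.08, 8.39 and 8.76 at the lowest, median and highest RYGB liver. The BWm values were 9.14, 8.85, 8.77 and 8.92, and the Sham AL values 8.88, 8.32, 7.87, 8.36 and 8.60. The RYGB livers all lay below the BWm livers while overlapping Sham AL. Neither the log2 difference of -0.50 ± 0.17 SE from BWm (adjusted p = 0.093) nor that of BWm from Sham AL (log2 0.52 ± 0.17 SE, adjusted p = 0.13) passed the test.

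The other 6 sinusoidal markers did not pass in RYGB against BWm. Dnase1l3, a secreted DNase, differed by log2 -0.55 ± 0.23 SE (adjusted p = 0.20), Oit3 by -0.44 ± 0.17 SE (adjusted p = 0.15) and F8, coagulation factor VIII, by -0.35 ± 0.15 SE (adjusted p = 0.21). The scavenger receptors Stab1 (log2 -0.15 ± 0.14 SE) and Stab2 (log2 -0.19 ± 0.18 SE), which clear hyaluronan and other ligands, were nearer to 0. Lyve1, the hyaluronan receptor, was the 1 sinusoidal marker with a positive difference (log2 0.18 ± 0.24 SE). The differences of the sinusoidal markers were not tested against each other.

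**Figure D2:**
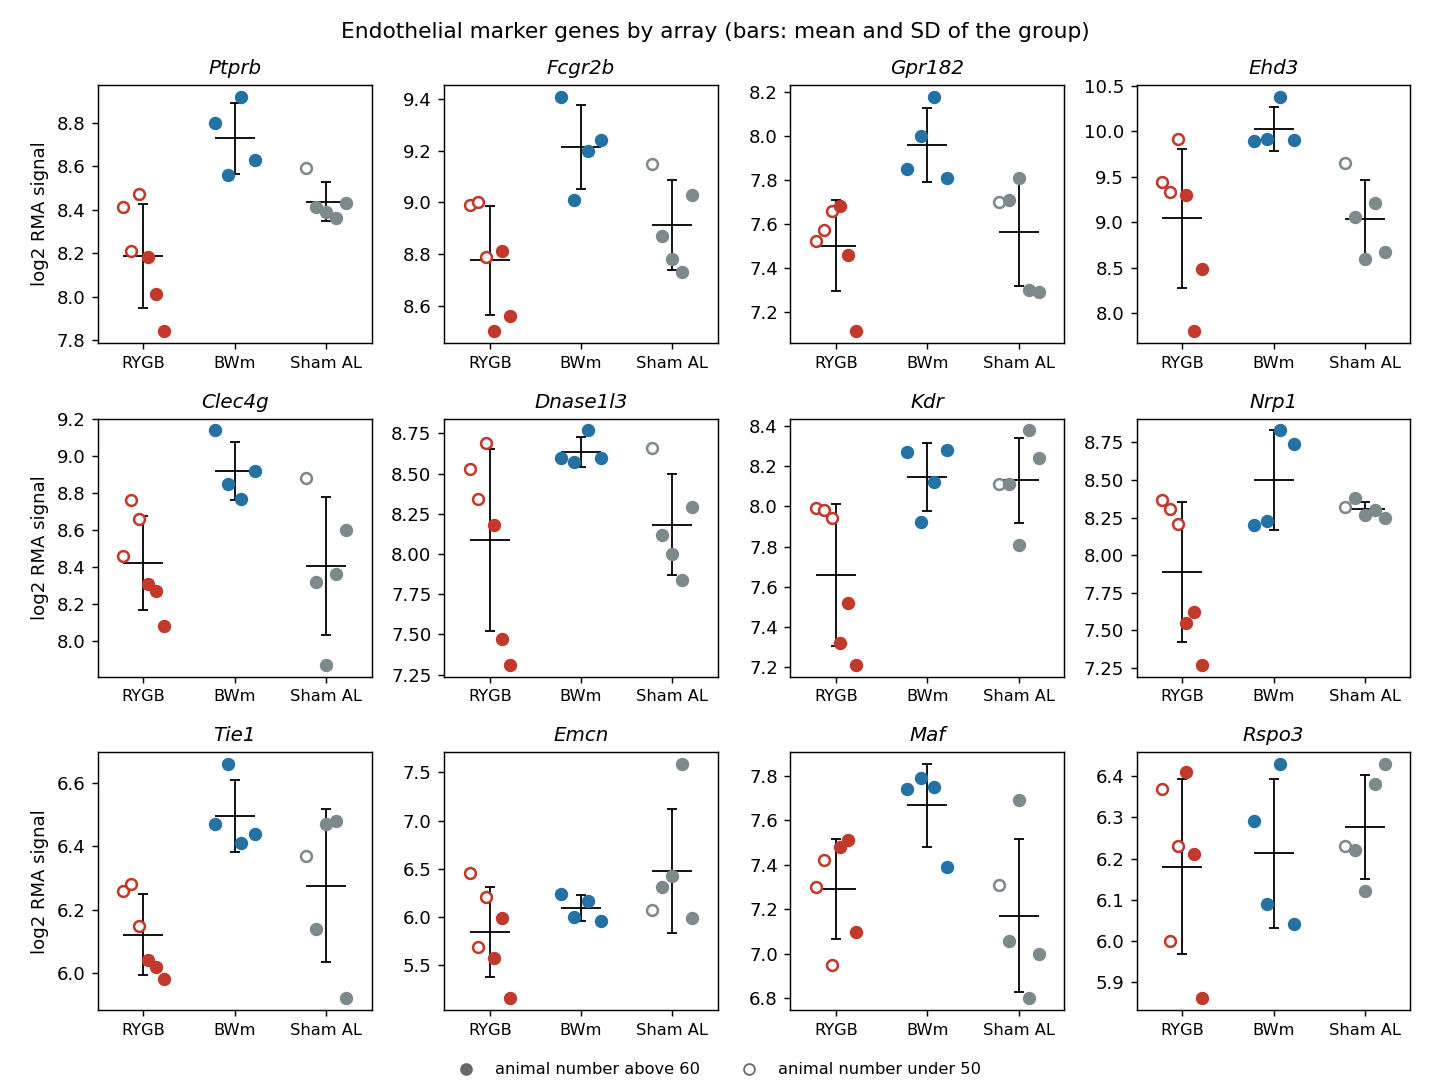
Log2 signal of selected markers in each liver (points), with RYGB, BWm and Sham AL side by side, bars at the group mean ± SD, and open points for animal numbers under 50. Ptprb, Fcgr2b and Gpr182 show no overlap between the RYGB and BWm livers, whereas RYGB and Sham AL overlap for each of them.

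Of the growth factor receptors and partners, Ptprb, the phosphatase VE-PTP that restrains TIE2 and VEGF receptor signalling, had the smallest p of the 32. It measured 7.84, 8.20 and 8.47 at the lowest, median and highest RYGB liver. The BWm livers gave 8.80, 8.56, 8.92 and 8.63 and the Sham AL livers 8.59, 8.41, 8.39, 8.36 and 8.43. No RYGB liver reached the BWm range, and RYGB replicates 1 and 3 reached the Sham AL range. Ptprb was 1.45-fold lower in RYGB than in BWm livers (log2 -0.54 ± 0.12 SE, adjusted p = 0.011), and differed by log2 -0.25 ± 0.11 SE from Sham AL (adjusted p = 0.37).

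Kdr, the main VEGF receptor (VEGFR2), had the smallest p of the markers against Sham AL. Its RYGB values were 7.21 at the lowest, 7.73 at the median and 7.99 at the highest, its BWm values 8.27, 7.92, 8.12 and 8.28, and its Sham AL values 8.11, 8.11, 7.81, 8.38 and 8.24. RYGB replicates 4, 5 and 6 lay between 7.21 and 7.52, and RYGB replicates 1 to 3 between 7.94 and 7.99, inside both sham ranges. The log2 difference was -0.49 ± 0.16 SE from BWm (adjusted p = 0.09) and -0.47 ± 0.15 SE from Sham AL (adjusted p = 0.17), and neither passed.

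Nrp1, the VEGF co-receptor neuropilin 1, divided the RYGB livers in the same manner, with 7.55, 7.62 and 7.27 in replicates 4 to 6 and 8.37, 8.31 and 8.21 in replicates 1 to 3. The BWm livers measured 8.20, 8.23, 8.83 and 8.74, and the Sham AL livers 8.32, 8.38, 8.27, 8.30 and 8.25. Differences of log2 -0.61 ± 0.20 SE from BWm (adjusted p = 0.079) and -0.41 ± 0.19 SE from Sham AL (adjusted p = 0.35) did not pass the test.

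Tie1, the orphan partner of TIE2, ran between 5.98 and 6.28 in RYGB livers (median 6.09), and measured 6.47, 6.66, 6.41 and 6.44 in BWm livers and 6.37, 6.14, 6.47, 6.48 and 5.92 in Sham AL livers. All RYGB livers were below all BWm livers, with log2 -0.38 ± 0.12 SE (adjusted p = 0.068). Tek, which encodes TIE2 itself, differed from Sham AL by log2 -0.33 ± 0.15 SE (adjusted p = 0.36), with RYGB values of 5.38, 6.19 and 6.37 (lowest, median, highest), BWm values of 6.44, 6.19, 6.30 and 6.00 and Sham AL values of 6.32, 6.23, 6.56, 6.40 and 6.27. Eng, the TGF-beta co-receptor endoglin (log2 -0.31 ± 0.13 SE from BWm, adjusted p = 0.18), Flt1, the VEGFR1 decoy (-0.22 ± 0.20 SE, adjusted p = 0.66), and Flt4, VEGFR3 (-0.14 ± 0.15 SE, adjusted p = 0.73), also did not pass. All 8 genes of this role had a difference below 0 in both RYGB comparisons, which share the RYGB livers.

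In 5 of 32 markers all RYGB livers lay below all BWm livers (Clec4g, Fcgr2b, Gpr182, Tie1 and Ptprb), against 2.91% of all genes. In 0 of 32 did all RYGB livers lie above all BWm livers (4.71% of all genes).

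Junction and pan-endothelial genes differed less between RYGB and BWm, with differences between log2 -0.36 and 0.23 and 0 of 8 called. Cdh5, VE-cadherin of endothelial junctions, differed by log2 -0.04 ± 0.15 SE, Pecam1, an adhesion molecule of all endothelium, by -0.09 ± 0.16 SE, and Esam, another junction adhesion molecule, by -0.13 ± 0.10 SE. Vwf, the clotting factor of larger vessels, differed by log2 0.11 ± 0.13 SE, Cldn5, a tight junction claudin, by 0.23 ± 0.18 SE and the secreted factor Egfl7 by 0.05 ± 0.13 SE. The widest differences were those of Robo4, a guidance receptor that stabilises vessels (log2 -0.36 ± 0.15 SE, adjusted p = 0.18), and the sialomucin Emcn (-0.25 ± 0.27 SE). The junction genes were not tested against the sinusoidal genes, so the smaller median is a description.

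The angiocrine factors Wnt2, Wnt9b and Rspo3, which pericentral endothelium sends to hepatocytes, differed by log2 -0.11 ± 0.13 SE, -0.19 ± 0.14 SE and -0.03 ± 0.12 SE between RYGB and BWm. Among the transcription factors, Maf, which with Gata4 sets the sinusoidal program, differed by log2 -0.37 ± 0.16 SE (adjusted p = 0.20), Gata4 by -0.21 ± 0.15 SE (adjusted p = 0.52) and Sox18 by -0.30 ± 0.17 SE (adjusted p = 0.38). None of these 6 genes was called in any of the 3 comparisons.

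**Figure D3:**
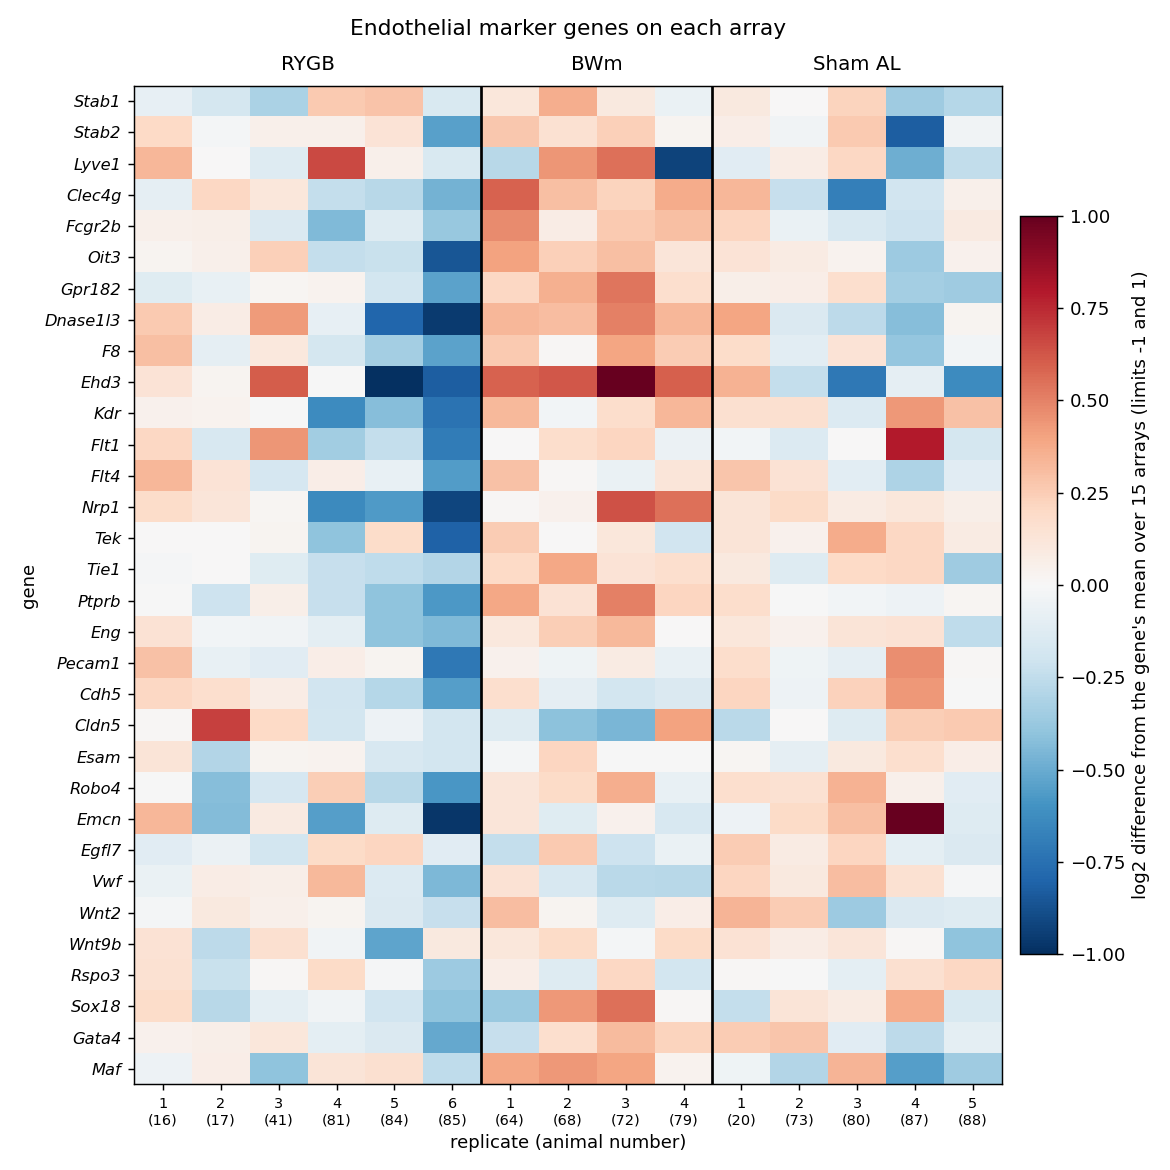
Log2 signal of each marker (rows, by role) in each of the 15 livers (columns), as the deviation from the gene's mean over all livers. RYGB replicate 6 is lowest of all livers in 19 of 32 markers, and BWm replicate 3 is highest in 11.

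Against Sham AL, 0 of 32 markers were called lower or higher in RYGB livers by limma, where 1.38% of all genes were called, 0.938% higher and 0.442% lower. The one-way analysis of variance with a 1.5-fold minimum, as in the study's methods, also called 0. At an unadjusted p under 0.05 there were 6 markers (Kdr, Emcn, Robo4, Nrp1, Tek and Ptprb), all lower, where 12.9% of all genes passed that level and 5.28% were lower. The median over the markers was log2 -0.11 (all genes -0.003), and differences lay below 0 for 25 of 32 (50.8% of all genes). In 0 of 32 did all RYGB livers lie above all Sham AL livers (1.58% of all genes) or below them (0.812%). The growth factor receptors had a median of -0.235, the junction genes -0.19 and the sinusoidal markers -0.03. Without Sham AL replicate 4 these medians were -0.21, -0.15 and -0.11, so the roles stood closer together.

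Emcn had the widest difference from Sham AL, log2 -0.63 ± 0.25 SE (adjusted p = 0.28). Its RYGB livers ran between 5.15 and 6.45 with a median of 5.84, its BWm livers measured 6.24, 6.00, 6.16 and 5.96, and its Sham AL livers 6.07, 6.31, 6.42, 7.59 and 5.99. The value of 7.59 was that of Sham AL replicate 4, the array with adrenal and brown fat transcripts, and without it the difference was -0.35. Robo4 measured 5.70, 6.07 and 6.53 at the lowest, median and highest RYGB liver, 6.41, 6.48, 6.65 and 6.21 in BWm livers and 6.45, 6.44, 6.63, 6.34 and 6.17 in Sham AL livers. Its difference of log2 -0.32 ± 0.14 SE from Sham AL did not pass (adjusted p = 0.31). Without Sham AL replicate 4, the counts of called markers were still 0 in RYGB against Sham AL, 3 in RYGB against BWm and 0 in BWm against Sham AL.

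In BWm against Sham AL, 0 of 32 markers were called by limma (2.84% of all genes, 1.53% higher and 1.3% lower), whereas the methods' analysis of variance called 1, Ehd3. At an unadjusted p under 0.05 there were 7 markers, 1 of them lower (Vwf, log2 -0.29 ± 0.14 SE, adjusted p = 0.32), where 15.3% of all genes passed that level and 7.8% were lower. Differences lay below 0 for 9 of 32 markers (53.0% of all genes). All 10 sinusoidal markers had a difference above 0, with a median of log2 0.29, against -0.015 over all genes. Without Sham AL replicate 4 the sinusoidal median was 0.22, against -0.008 over all genes. The junction genes had a median of -0.15, with 6 of 8 below 0. Besides Ehd3 and Clec4g, the smallest p values were those of Maf (log2 0.50 ± 0.16 SE, adjusted p = 0.12) and Gpr182 (0.40 ± 0.14 SE, adjusted p = 0.15). Maf measured 7.74, 7.79, 7.75 and 7.39 in BWm livers and 7.31, 7.06, 7.69, 6.80 and 7.0 in Sham AL livers, so BWm replicate 4 and Sham AL replicate 3 overlapped. Fcgr2b (0.30 ± 0.13 SE) and Ptprb (0.29 ± 0.13 SE) each had an adjusted p of 0.27. In Gpr182 and Ehd3 all BWm livers lay above all Sham AL livers (3.46% of all genes), and in 0 of 32 did they all lie below (3.39%).

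The 3 comparisons share groups. For Ptprb, Fcgr2b and Gpr182 the group means stood at 8.19, 8.78 and 7.50 in RYGB livers, 8.73, 9.21 and 7.96 in BWm livers and 8.43, 8.92 and 7.56 in Sham AL livers. BWm livers were thus the highest group for each of them, and RYGB livers the lowest. The difference between RYGB and Sham AL passed the test for none of them.

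RYGB livers with animal numbers above 60 (replicates 4 to 6) had a lower mean than those numbered under 50 (replicates 1 to 3) in 28 of 32 markers (51.3% of all genes). The gap was widest in Ehd3, with 8.52 above 60 and 9.56 under 50, Dnase1l3 (7.65 and 8.52), Nrp1 (7.48 and 8.30) and Kdr (7.35 and 7.97). All 3 RYGB livers above 60 lay below all BWm livers in 14 of 32 markers (6.95% of all genes), and all 3 under 50 did so in 6 of 32 (5.84%). The BWm mice were all numbered above 60, so RYGB under 50 cannot be set against BWm of like number. RYGB replicate 6, the lowest of all arrays in 19 of the 32 markers, was 1 of the 3 RYGB livers above 60. Averaged over the markers and relative to the mean of all arrays, replicates 4, 5 and 6 lay at -0.08, -0.21 and -0.50. Replicates 1, 2 and 3 lay at 0.10, -0.03 and 0.03.

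With animal number as a block in the fit, 12 markers were called lower in RYGB than in BWm livers (6.75% of all genes called), 1 in RYGB against Sham AL (Kdr, log2 -0.59 ± 0.14 SE, adjusted p = 0.035; 1.71% of all genes) and 3 were called higher in BWm than in Sham AL livers (Clec4g, Dnase1l3 and Ehd3; 3.54%). Of the 12, 7 were sinusoidal (Clec4g, Fcgr2b, Oit3, Gpr182, Dnase1l3, F8 and Ehd3) and 5 were receptors or partners (Kdr, Nrp1, Tie1, Ptprb and Eng), and none was a junction gene. Among livers numbered above 60 alone, 9 were called lower in RYGB than in BWm livers (4.55%), led by Nrp1 (log2 -1.02 ± 0.17 SE, adjusted p = 0.0032) and Ptprb (-0.71 ± 0.13 SE, adjusted p = 0.0058). The difference in Ehd3 was then log2 -1.50 ± 0.28 SE (adjusted p = 0.0066), or 2.83-fold. Against Sham AL, Kdr (log2 -0.79 ± 0.15 SE, adjusted p = 0.027) and Nrp1 (-0.82 ± 0.17 SE, adjusted p = 0.036) were called, 2 of 32 where 0.956% of all genes were. Clec4g and Ehd3 were called higher in BWm than in Sham AL livers (1.98%). The block term rested on RYGB and Sham AL livers alone, because no BWm mouse was numbered under 50, and was taken as equal in all groups. All 9 markers called lower than BWm above 60 were among the 12 of the blocked fit. These counts are thus not independent of each other. RYGB replicate 6 was 1 of the 3 RYGB livers above 60. What the animal number stands for was not tested.

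**Figure D4:**
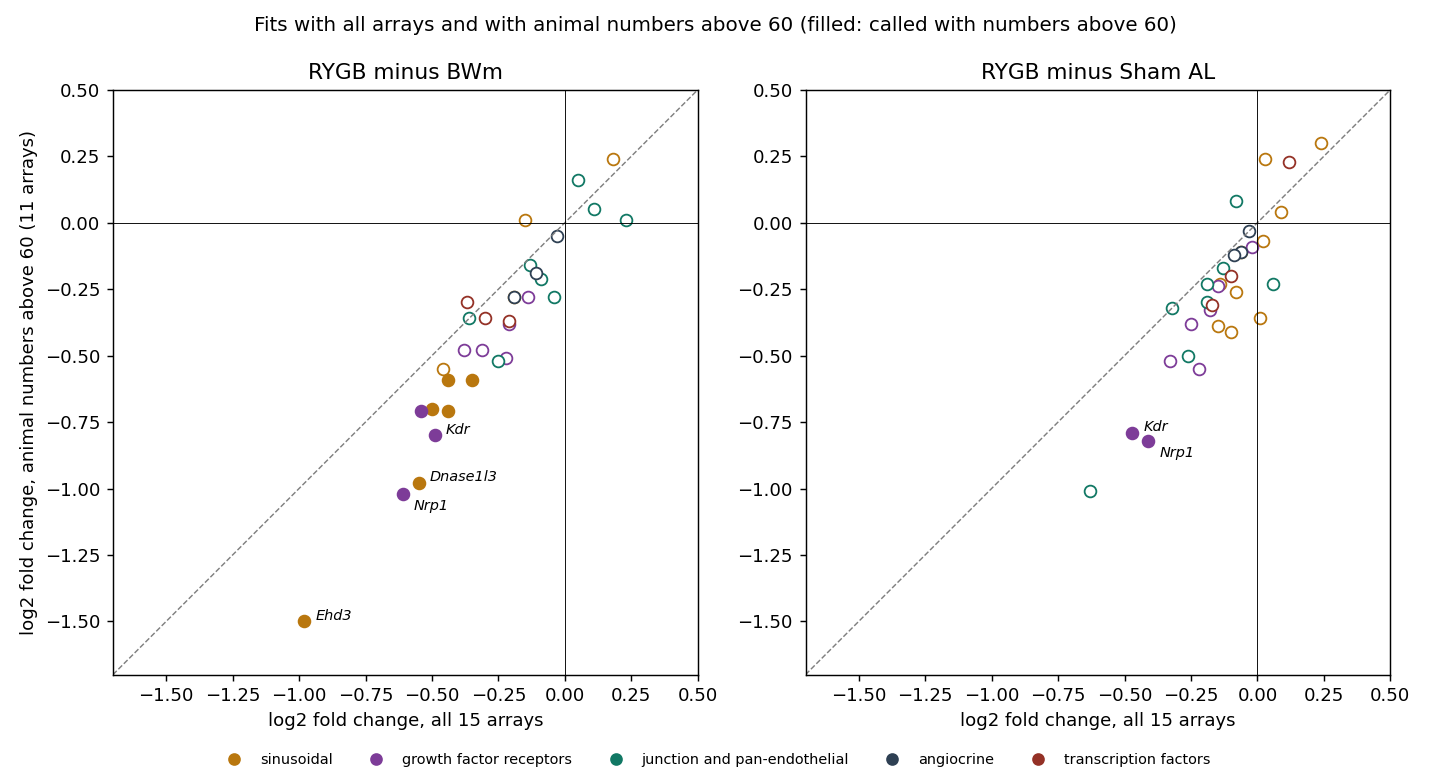
Each point is 1 marker; its log2 difference over all 15 livers (horizontal) is set against that over livers numbered above 60 alone (vertical), for RYGB minus BWm and RYGB minus Sham AL, with points coloured by role and filled where called among livers above 60. For RYGB minus BWm, 9 points are filled and lie below the line of equality, Ehd3 lowest at -1.50.

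Some calls in RYGB against BWm were lost when 1 liver was left out, while the differences moved little. Without RYGB replicate 6 only Ptprb was called (log2 -0.47, adjusted p = 0.022), while Fcgr2b (-0.39, adjusted p = 0.09) and Gpr182 (-0.39, adjusted p = 0.095) were not. Without BWm replicate 3, the liver with the highest value in 11 of 32 markers, 0 were called, and Ptprb had a difference of log2 -0.48 and an adjusted p of 0.053. With any 1 liver left out, the difference lay between -0.60 and -0.47 for Ptprb, -0.50 and -0.37 for Fcgr2b and -0.51 and -0.39 for Gpr182. Leaving out RYGB replicate 4 or 5, Sham AL replicate 2, or BWm replicate 1 or 4 also left 1 call, Ptprb. The medians over the 32 markers kept their sign whichever liver was left out, between -0.32 and -0.18 for RYGB against BWm.

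Genes that act with the markers were examined from lists chosen with earlier results known. Of all genes, 6.36% were called in RYGB against BWm, 1.38% in RYGB against Sham AL and 2.84% in BWm against Sham AL. Of 10 VEGF and angiopoietin ligands, the growth factors that bind these receptors, 0 were called in any comparison. Vegfa, the ligand of Kdr and Flt1, differed by log2 -0.33 ± 0.12 SE between RYGB and BWm (adjusted p = 0.13) and by -0.27 ± 0.11 SE between RYGB and Sham AL (adjusted p = 0.29). Of 16 further endothelial transcription factors 0 were called, with Hhex at log2 -0.58 ± 0.19 SE (adjusted p = 0.09) and Epas1, the hypoxia factor HIF-2alpha, at -0.32 ± 0.11 SE (adjusted p = 0.11) between RYGB and BWm. Hhex was called lower without Sham AL replicate 4 (adjusted p = 0.031) and with the animal number block (adjusted p = 0.028). It was not called without RYGB replicate 6 (log2 -0.54, adjusted p = 0.16) or among livers numbered above 60 (-0.66, adjusted p = 0.1). The 17 Wnt targets of pericentral hepatocytes and the 8 pericentral endothelial genes also gave 0 calls in each comparison. With the animal number block Cdh13, an atypical cadherin of the pericentral list, was called lower in RYGB than in BWm livers (log2 -0.64 ± 0.16 SE, adjusted p = 0.022). Cdh13 was not called among livers numbered above 60 (log2 -0.64, adjusted p = 0.071) or without RYGB replicate 6 (-0.36, adjusted p = 0.26). Znrf3, a Wnt feedback gene, was the Wnt target with the smallest p in RYGB against BWm (log2 -0.39 ± 0.12 SE, adjusted p = 0.065).

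Of 10 endothelial BMP signals and their hepatocyte targets, 3 were called lower in RYGB than in BWm livers and 0 higher. Of all genes, 2.34% were called lower and 4.02% higher. Bmp2, the endothelial ligand that helps to switch on hepcidin, ran between 6.08 and 6.92 in RYGB livers (median 6.24), and measured 6.99, 6.72, 6.90 and 6.87 in BWm livers and 6.38, 6.22, 5.87, 5.99 and 6.17 in Sham AL livers. One RYGB liver, replicate 2, reached the BWm range and the others were below it. Bmp2 was 1.45-fold lower in RYGB than in BWm livers (log2 -0.53 ± 0.15 SE, adjusted p = 0.033) and 1.68-fold higher in BWm than in Sham AL livers (0.75 ± 0.15 SE, adjusted p = 0.011). Without RYGB replicate 6 the call against BWm was lost (log2 -0.52 ± 0.15 SE, adjusted p = 0.062), which left 2 of the 10 genes called. Atoh8, a BMP-responsive factor, was lower in RYGB than in BWm livers (log2 -0.85 ± 0.15 SE, adjusted p = 0.0014) and higher in BWm than in Sham AL livers (0.81 ± 0.15 SE, adjusted p = 0.0065). Hamp2, a relative of hepcidin that can share probe signal with Hamp, fell by log2 4.09 ± 0.45 SE in RYGB against BWm livers (adjusted p = 4.5e-05) and by 3.25 ± 0.42 SE against Sham AL livers (adjusted p = 0.00062). It was the 1 gene of this list called in RYGB against Sham AL, where Bmp2 and Atoh8 were not called. Hamp, which encodes hepcidin itself, averaged 11.61 in RYGB, 11.95 in BWm and 12.43 in Sham AL livers. Hamp was not called in any of the comparisons over all arrays. In RYGB livers Hamp2 ran between 3.60 and 6.98 and Hamp between 10.54 and 12.31. Sharing of probe signal between them was not tested.

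Among 28 other endothelial surface and junction genes, 2 were called higher and 2 lower in RYGB than in BWm livers (4.02% and 2.34% of all genes). Icam1, the leukocyte adhesion molecule, ran between 6.56 and 7.01 in RYGB livers (median 6.82), against 6.21, 6.29, 5.93 and 5.86 in BWm livers and 6.41, 6.19, 6.49, 5.96 and 6.43 in Sham AL livers. Every RYGB value exceeded every sham value, with log2 0.74 ± 0.13 SE from BWm (adjusted p = 0.0016) and 0.52 ± 0.12 SE from Sham AL (adjusted p = 0.039). The call against Sham AL was lost without Sham AL replicate 4 (log2 0.44, adjusted p = 0.086), without RYGB replicate 6 (0.52, adjusted p = 0.072), with the animal number block (0.52, adjusted p = 0.057) and among livers numbered above 60 (0.57, adjusted p = 0.15). The call against BWm was kept in these 4 fits. Myct1, an endothelial membrane protein, was lower by log2 0.61 ± 0.14 SE (adjusted p = 0.01) and Adgrf5, an adhesion receptor of endothelium, by 0.64 ± 0.16 SE (adjusted p = 0.02) in RYGB than in BWm livers. Mmrn1, a multimerin of endothelium and platelets, was higher by 0.44 ± 0.11 SE (adjusted p = 0.025), with means of 3.79 in RYGB and 3.35 in BWm livers that lay below every array median. Its call in RYGB against BWm was lost with the animal number block (log2 0.34, adjusted p = 0.11) and among livers numbered above 60 (0.28, adjusted p = 0.30). The Sham AL mean of Mmrn1 was 3.81, near that of RYGB. It was called lower in BWm than in Sham AL livers (log2 -0.46 ± 0.12 SE, adjusted p = 0.041). That call was kept with the animal number block (adjusted p = 0.047). It was lost without Sham AL replicate 4 (adjusted p = 0.089), without RYGB replicate 6 (adjusted p = 0.05) and among livers numbered above 60 (adjusted p = 0.058). As a group, RYGB livers were thus higher than BWm livers in Icam1 and lower in Ptprb, Fcgr2b and Gpr182. Whether these genes moved together from liver to liver was not tested.

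Of 12 periportal and arterial genes, 1 was called higher and 1 lower in RYGB than in BWm livers (4.02% and 2.34% of all genes). Msr1, a scavenger receptor that macrophages also make, was higher (log2 0.82 ± 0.18 SE, adjusted p = 0.0086). Ltbp4, a matrix protein that binds latent TGF-beta, was lower (-0.65 ± 0.15 SE, adjusted p = 0.013). Of 11 genes of capillarization and activation, the change of sinusoids to ordinary capillaries with a basement membrane, 1 was called higher in RYGB than in BWm livers. This was Col4a1, a basement membrane collagen (log2 0.62 ± 0.17 SE, adjusted p = 0.04), where 4.02% of all genes were called higher. Without RYGB replicate 6 it was not called (log2 0.64 ± 0.19 SE, adjusted p = 0.057), which left 0 of 11. Col4a1 averaged 5.89 in RYGB, 5.27 in BWm and 5.89 in Sham AL livers, so RYGB stood at the Sham AL level. In BWm minus Sham AL it differed by log2 -0.61 ± 0.18 SE (adjusted p = 0.082). That difference was called with the animal number block (log2 -0.69 ± 0.16 SE, adjusted p = 0.029). It was not called among livers numbered above 60 (adjusted p = 0.056), without RYGB replicate 6 (adjusted p = 0.097) or without Sham AL replicate 4 (adjusted p = 0.16).

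Markers of other liver cells were measured beside these results. The mean level of the 12 Kupffer cell markers, resident macrophages that share some sinusoidal genes, lay between 7.44 and 7.92 in RYGB livers, 7.13 and 7.84 in BWm livers and 7.07 and 7.52 in Sham AL livers. Their median difference was log2 0.30 in RYGB against BWm, with 0 of 12 called (6.36% of all genes). In RYGB against Sham AL it was 0.42, with 1 called (1.38% of all genes). Both medians had the opposite sign to the endothelial medians. The 12 stellate cell and fibroblast markers had a median of 0.04 in RYGB against BWm and the 12 hepatocyte markers -0.125, each with 0 called. The part of these cells in the endothelial values was not tested.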

How the data were processed

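All 15 Mouse Gene 2.0 ST arrays were summarised by the authors with robust multi-array averaging (Affymetrix Expression Console 1.4.1.46, per the series' design text). Their deposited table holds a log2 signal for 41345 transcript clusters. The genome build of the probes is not given in the sources used here. Clusters with 1 symbol in the probe table were kept (23521; 1814 had several symbols and 16010 none), 23328 of them matched mouse RefSeq by Entrez number, and 1 cluster per gene, that with the highest mean, left 22180 genes. Of the markers, only Maf had more than 1 cluster.

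The 3 comparisons were contrasts in 1 limma fit (limma 3.58.1, R 4.3.3; lmFit and eBayes) leaving 12 residual degrees of freedom besides 5.85 from the prior. Two-sided tests were used with Benjamini-Hochberg adjustment over all 22180 genes and a threshold of 0.05, and errors of differences are moderated standard errors. Precision is limited by how many arrays there were. The median SE was 0.135 for RYGB against BWm, 0.127 for RYGB against Sham AL and 0.14 for BWm against Sham AL. The fit was tested on simulated data. Tables and figures were made with Python 3.11.15, pandas 2.3.3 and matplotlib 3.10.9.

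The members, lists and tests were chosen with earlier results of these data known, among them a shift of an endothelial list with animal number as a block, so that pattern is not independent support. Every marker past the threshold and the 6 with the smallest p in each comparison were described by array, and the rest by their differences. Of each related list, called genes (at most 4) or else the 2 with the smallest p could be named. Hamp was named in addition, beside Hamp2. The titles number the samples as biological replicates. Alternatives were a level filter, quantile normalization, subtracted array medians, averaging the clusters of a gene, the compared groups only, a trended robust prior, array weights, blocks for replicate and animal number, livers numbered above 60, the methods' one-way analysis of variance, and leaving out each array. Leaving out RYGB replicate 6 and Sham AL replicate 4 together was chosen after seeing the data.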

Additional observations from a re-analysis of the deposited data

Results flagged for a closer look

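In each group, for each marker and for the mean over the 32 markers, the highest and lowest liver was set against the others by Dixon's test, and 11 of 99 tests were past its critical value, where chance gives about 1 in 20. Single RYGB and BWm livers that lay far from their group were RYGB replicate 6 in Stab2 (7.52, others 8.04 to 8.26), BWm replicate 3 in Ehd3 (10.38, others 9.89 to 9.92), BWm replicate 2 in Esam (5.5, others 5.26 to 5.28) and BWm replicate 4 in Maf (7.39, others 7.74 to 7.79). Sham AL replicate 4, the array with adrenal and brown fat transcripts, lay low in Stab2 (7.24, others 8.03 to 8.32) and Oit3 (7.34, others 7.74 to 7.84) and high in Flt1 (6.92, others 5.95 to 6.13) and Emcn (7.59, others 5.99 to 6.42). Sham AL replicate 1 lay high in Ptprb (8.59, others 8.36 to 8.43). Sham AL replicate 5 lay low in Eng (8.99, others 9.29 to 9.39) and Wnt9b (4.06, others 4.47 to 4.60).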

How the results depend on the processing

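The number of markers called in RYGB against BWm, 3 in the fit over all arrays, was 7 with only genes above the median level, 12 with animal number as a block, 9 among livers numbered above 60, 1 by the methods' analysis of variance (Ehd3) and 1 by the same test after Benjamini-Hochberg adjustment (Tie1). It was 1 without RYGB replicate 6 and Sham AL replicate 4 together, an alternative chosen after seeing the data, and between 0 and 4 with 1 liver left out. In RYGB against Sham AL the count of 0 became 1 with the animal number block and 2 above 60, and stayed 0 with any 1 liver left out. In BWm against Sham AL the count of 0 became 1 with only the compared groups fitted, 3 with the animal number block, 2 above 60 and 1 by the methods' analysis of variance, and lay between 0 and 1 with 1 liver left out. The level filter kept 30 of the 32 markers and tested fewer genes. The cause of the other changes was not tested. Outside the animal number block and the fit above 60, the share of all genes called under these alternatives is not given here. Their marker counts thus cannot be set against all genes. Medians over the markers lay between -0.17 and -0.06, -0.32 and -0.18, and 0.07 and 0.16 with 1 liver left out of RYGB against Sham AL, RYGB against BWm and BWm against Sham AL. Deviations of same-numbered livers of different groups had correlations between -0.17 and 0.19. Differently numbered livers were not set beside them, so these values cannot decide whether replicate numbers pair the samples. With a replicate block 1 marker (Ptprb) was called in RYGB against BWm. The replicate block gave 0 in the other comparisons. Values of single markers under the alternatives were counted only for called markers and the 6 with the smallest p in each comparison. Of these values, 443 kept their side of the threshold, 27 passed it and 34 lost it, and none changed sign. These markers were picked for a small p, so their kept sign says nothing of the other markers. In RYGB against BWm, Gpr182 lost its call under 18 alternatives, Fcgr2b under 13 and Ptprb under 3.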
